A study of Mus musculus with 8 samples.

Results

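The V segments of the mouse T cell receptor (TCR) that carry a double name, TRAV and DV, were followed in the TCR α-chain repertoire of endogenous CD8+ T (en-T) cells from 8 melanoma-bearing mice. A clonotype, a row with 1 CDR3 nucleotide sequence and its V and J names, was taken as a member when its V name began with TRAV and held "-DV". This rule found 3101 of 53249 clonotypes (5.82%), with 4572 of 80000 reads, under 9 of 116 V segment names. The annotation holds 10 such segments, and the remaining one, TRAV21/DV12, is written with a slash in the deposited tables and was therefore outside the rule. Its 607 reads are given separately and were added to the members as an alternative.

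All mice were female C57BL/6 mice of 6 to 8 weeks that carried B16F10 melanoma and were lymphodepleted on day 3 with 300 mg/kg of the alkylating drug cyclophosphamide (CTX). Pmel-1 CD8+ T cells with a transgenic TCR for gp100 followed on day 5, together with 10000 IU interleukin-2 daily for 3 days. The CTX group (3 mice, named CTXpre in the study) had no further treatment, and the CTX_CD4 group (5 mice, CTXpre/CD4post) was also given 200 μg of the CD4-depleting antibody GK1.5 on days 10, 17 and 24. On day 25, Thy1.1-negative CD8+ cells, which leaves out the transferred Pmel-1 cells, were sorted from inguinal lymph nodes and spleen, and each of the 8 α-chain libraries held 10000 reads after down-sampling by the authors. These libraries hold TCR transcripts only, so no marker of the sorted cells could be checked in them.

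The α-chain and δ-chain genes of the TCR lie in 1 stretch of chromosome 14, with the δ segments between the array of V segments and the TRAJ segments. A TRAV/DV segment can be joined to D and J segments of the δ-chain, for the receptor of γδ T cells, or directly to a TRAJ segment, for the receptor of αβ T cells such as CD8+ T cells. The α-chain locus can rearrange repeatedly, each round joining a V segment farther upstream to a TRAJ segment farther downstream. In mice the middle of the V array is duplicated, so that most TRAV/DV segments have near-identical copies, marked D or N in their names, some of which carry no DV suffix.

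On mouse genome build GRCm38, all 9 segments are annotated on the plus strand of chromosome 14 as V genes of the TCR. A distal block of 4 segments begins between 1291 and 1076 kb upstream of the first TRAJ segment, TRAJ61. TRAV15D-1-DV6D-1 lies at chr14:52863299-52863936, TRAV15D-2-DV6D-2 at chr14:52956782-52957400, TRAV16D-DV11 at chr14:53047287-53047821 and TRAV14D-3-DV8 at chr14:53078452-53079045. The other 5 form a proximal block between 595 and 397 kb from it. TRAV15-1-DV6-1 lies at chr14:53559632-53560247, TRAV15-2-DV6-2 at chr14:53649404-53649994, TRAV4-4-DV10 at chr14:53683647-53684177, TRAV6-7-DV9 at chr14:53709902-53710419 and TRAV13-4-DV7 at chr14:53757356-53757921. TRAV21/DV12, at chr14:53875984-53876752, is closer still, 278 kb away. TRAJ numbers fall along the chromosome, from TRAJ61 at the upstream end to TRAJ1, which ends at position 54218842.

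Because CDR3 length depends on how much of the V segment remains in the join, the germline ends of the segments are shown first, from the first base of the CDR3 to the end of the segment on GRCm38 (5′ to 3′). The single capital marks the base at which the end of TRAV6-7-DV9 differs from that of its copies TRAV6D-7 and TRAV6N-7.
TRAV15D-1-DV6D-1: tgtgctctctgggagctgg
TRAV15-2-DV6-2: tgcgctctctcggaactga
TRAV16D-DV11: tgtgctatgagagaggg
TRAV14D-3-DV8: tgtgcagcaagtg
TRAV4-4-DV10: tgtgctgctgagg
TRAV13-4-DV7: tgtgctatggaac
TRAV6-7-DV9: tgtgctctgAgtga
TRAV6N-7: tgtgctctgGgtga
The ends of the TRAV15 segments are 19 bases long and that of TRAV16D-DV11 17 bases, against 14 bases for TRAV6-7-DV9 and 13 bases for the other 3. Outside TRAV6-7, the TRAV/DV segments have the same germline ends as their copies that were named in these tables, so that germline bases of the CDR3 do not tell those apart. Over their V exons, TRAV/DV segments and their copies are 91.7% to 100% identical, and TRAV15D-1-DV6D-1 matches TRAV15N-1 at all 300 aligned bases.

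TRAV16D-DV11 was the most used member, with 298, 312 and 242 reads in the CTX mice and 233, 304, 248, 294 and 400 reads in the CTX_CD4 mice. It held 51.0% of all TRAV/DV reads, and the groups overlapped. In such bulk libraries, fewer cells with a receptor and less receptor RNA per cell cannot be told apart. TRAV14D-3-DV8 had 73, 83 and 60 reads in the CTX mice and 174, 27, 79, 53 and 190 reads in the CTX_CD4 mice, a range within CTX_CD4 that covered that of CTX. TRAV6-7-DV9 had 66, 68 and 85 reads in the CTX mice and 60, 119, 57, 58 and 68 reads in the CTX_CD4 mice, with CTX_CD4 mouse 2 above the rest. TRAV4-4-DV10 ranged from 31 to 54 reads per mouse, TRAV15-1-DV6-1 from 14 to 28, TRAV13-4-DV7 from 9 to 23 and TRAV15-2-DV6-2 from 5 to 19. TRAV15D-2-DV6D-2 was rare, with 22 reads over all mice and no read in CTX_CD4 mouse 4, where 0 reads allow a share of up to 0.03% (counting error only).

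TRAV15D-1-DV6D-1 had 27, 29 and 25 reads in the CTX mice and 16, 16, 22, 21 and 18 reads in the CTX_CD4 mice. The groups did not overlap. This held in the same direction for 4.85% of the 103 V segments tested and in the opposite direction for 0.971%. Its log2 fold change was -0.51 ± 0.32 (SE, CTX_CD4 minus CTX) and did not pass the test (edgeR adjusted p = 0.745). Of these 103 V segments, each with 10 or more reads in 3 or more mice, edgeR called 0.0% changed between the groups, 6 had an unadjusted p under 0.05, and DESeq2 called 0. Among the 8 TRAV/DV segments tested, 0 were called by edgeR and 0 had an unadjusted p under 0.05. Their log2 fold changes ran from -0.51 to 0.56 (TRAV14D-3-DV8, 0.56 ± 0.40 SE, adjusted p = 0.745), with a median of -0.12 against 0.04 over all V segments. In simulated data the same fit recovered 51% of 2-fold changes between the groups, so changes of this size could be missed.

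**Figure D1:**
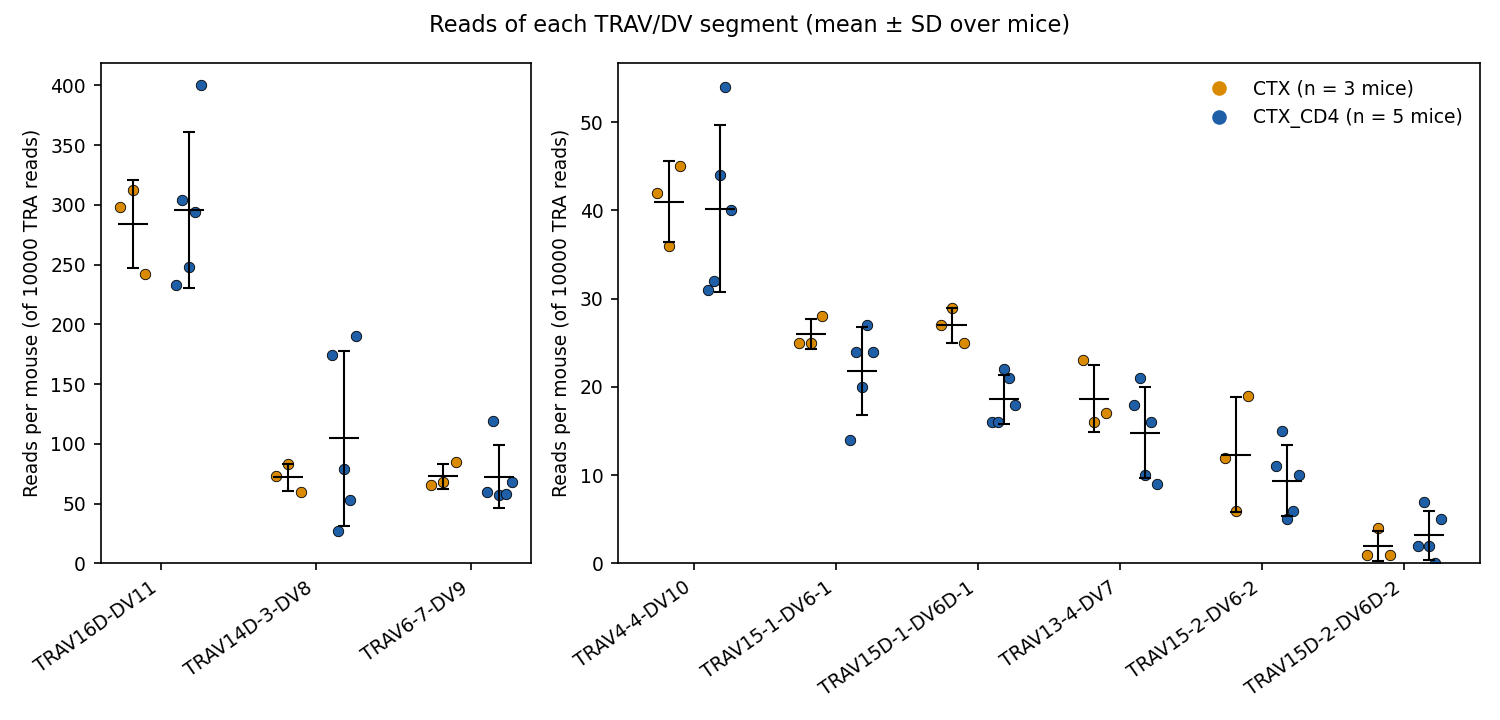
Reads of each TRAV/DV segment per mouse (of 10000 α-chain reads), with points for single mice, horizontal marks for group means and bars for SD. The CTX_CD4 mice ranged from 27 to 190 reads for TRAV14D-3-DV8, and only for TRAV15D-1-DV6D-1 do the points of the groups not overlap.

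As a class, TRAV/DV joins took 5.67%, 5.79% and 5.22% of the reads in the CTX mice and 5.59%, 5.65%, 4.87%, 5.29% and 7.64% in the CTX_CD4 mice. The mean was 5.56% ± 0.30 (SD, n = 3) in CTX and 5.81% ± 1.07 (SD, n = 5) in CTX_CD4, which did not differ beyond the spread between mice (exact two-sided Mann–Whitney test, p = 0.786). Without CTX_CD4 mouse 5 the difference turned from 0.25 to -0.21 percentage points. Counted as clonotypes, the share was 5.67% ± 0.22 in CTX and 5.91% ± 0.38 in CTX_CD4 (exact p = 0.393). With 3 against 5 mice this test cannot give a p below 0.0357. The other group comparisons, given with their measures, belong to the same family of 6, and none of the 6 had an adjusted p below 0.536.

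The TRAJ partners of TRAV/DV joins lay farther upstream than those of other joins. Taking each clonotype once, the mean TRAJ number was 35.3 ± 1.42 (SD, n = 8 mice) in TRAV/DV joins and 30.3 ± 0.73 in all other joins of the same mice. In the CTX mice, TRAV/DV joins had means of 35.4, 33.4 and 35.5, and in the CTX_CD4 mice of 35.6, 36.01, 33.3, 35.7 and 37.7. Every one of these values was above that of the other joins of its mouse, which ran from 29.1 to 31.1. The within-mouse difference was 5.00 ± 0.86 (SD), higher in 8 of 8 mice (exact two-sided sign-flip permutation test, p = 0.0078, adjusted over 5 within-mouse measures 0.0195), and 0.0078 is the smallest p that 8 mice allow. It did not pass a test of a difference between the groups, with 4.70 in CTX and 5.18 in CTX_CD4 (exact Mann–Whitney p = 0.571), and neither did the mean TRAJ number of TRAV/DV joins itself (34.7 ± 1.18 and 35.7 ± 1.55, exact p = 0.25). With TRAV21/DV12, whose mean TRAJ number was 48.0, counted as a member, the within-mouse difference was 6.74.

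Segment by segment, the shift was not uniform. TRAV6-7-DV9 had the highest mean TRAJ number, 42.3 ± 1.67 (SD over 8 mice), 12.02 above the joins outside the rule. It was followed by TRAV4-4-DV10, 9.91 above, TRAV13-4-DV7, 8.93 above, TRAV15-2-DV6-2, 6.86 above, TRAV16D-DV11, 4.64 above, and TRAV15-1-DV6-1, 3.85 above. TRAV14D-3-DV8 lay in the opposite direction, with a difference of -2.60, lower in 8 of 8 mice. These 7 of the 8 segments with at least 5 clonotypes in every mouse passed the exact sign-flip permutation test (adjusted p of 0.0104 to 0.0179). TRAV15D-1-DV6D-1 differed by -3.01 on average and did not pass (exact adjusted p = 0.164), and TRAV15D-2-DV6D-2 had too few clonotypes. The spread between mice (SD) was 4.79 for TRAV13-4-DV7 and 5.80 for TRAV15D-1-DV6D-1. It was 3.34 for TRAV15-2-DV6-2, 2.30 for TRAV16D-DV11 and 2.58 for TRAV15-1-DV6-1. For these segments the order of neighbours in this list is therefore not resolved.

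A distinct TRAJ use was common among V segments in general. When each V segment was compared with the rest of the repertoire in the same way, 35.4% of 96 segments were called higher and 46.9% lower (exact sign-flip permutation test, adjusted over 96 segments). Of the 8 TRAV/DV segments, 6 were called higher and 1 lower. Their median difference was 5.52 TRAJ numbers, against -1.92 over all 96 segments, whose range ran from -8.91 to 18.5.

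Among the 9 segments, the mean TRAJ number was compared with the annotated position of the name. The V exons of TRAV15D-1-DV6D-1 and TRAV15D-2-DV6D-2 match those of TRAV15N-1 and TRAV15N-2 with 0 mismatches. Reads under these distal names therefore cannot be placed at 1 position from the V exon, and the other exons were not compared. The distal TRAV15D-1-DV6D-1, TRAV15D-2-DV6D-2 and TRAV14D-3-DV8 had means over clonotypes of 27.5, 27.7 and 27.7, TRAV16D-DV11 one of 34.7, and the 5 proximal segments means of 33.9 to 42.4. Spearman's rho between position and mean TRAJ number was 0.87 over these 9 segments, which share the same 8 libraries, and 0.50 over the 101 V segments with at least 50 reads. Over the 9 segments and their 11 copies together it was 0.32. At the ends of the TRAJ array, TRAV6-7-DV9 and TRAV4-4-DV10 joined TRAJ20 or lower in 2.51% and 3.35% of clonotypes, against 23.2% in the joins outside the rule. For TRAV14D-3-DV8 and TRAV15D-1-DV6D-1 these shares were 36.3% and 35.3%. TRAV21/DV12, the closest of the dual-use segments to the TRAJ array, joined TRAJ50 or higher in 43.6% of its clonotypes.

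**Figure D2:**
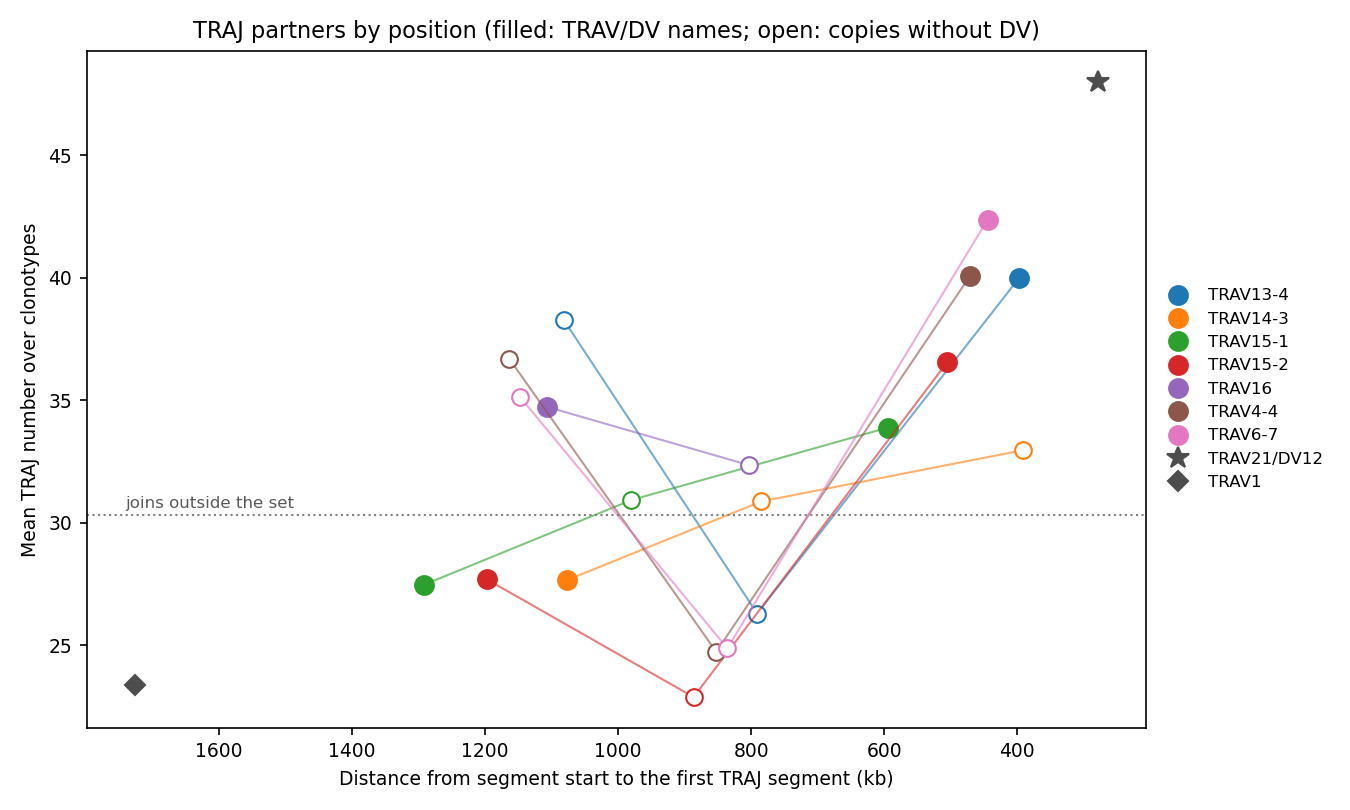
Mean TRAJ number over clonotypes against the distance of each V segment from the first TRAJ segment (kb), with filled circles for TRAV/DV names, open circles for their copies without DV and lines joining copies of 1 segment. The 5 proximal TRAV/DV segments lie at 33.9 to 42.4, above the dotted mean of the joins outside the set (30.3), and in TRAV4-4, TRAV6-7, TRAV13-4 and TRAV15-2 the N copy is the lowest point.

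Within families, each made up of 1 segment and its copies, the copies are a closer comparison. The TRAV/DV name had a higher mean TRAJ number than its copies by 13.9 ± 2.49 (SD, n = 8 mice) in TRAV6-7, 11.3 ± 2.03 in TRAV4-4, 11.3 ± 3.62 in TRAV15-2, 4.81 ± 4.57 in TRAV13-4 and 2.59 ± 2.42 in TRAV16. In TRAV14-3, where the TRAV/DV name belongs to a distal copy, the difference was -4.64 ± 1.37. These 6 of 7 families passed the exact sign-flip permutation test (adjusted p of 0.0137 to 0.0182), and TRAV15-1 did not (difference -1.15 ± 4.26, adjusted p = 0.477). In TRAV14-3 the proximal copy, at chr14:53763173-53763694, carries no DV suffix and had a mean of 33.0, TRAV14N-3 had 30.9 and TRAV14D-3-DV8 27.7, which is the order of their positions. In TRAV15-1 the means had the same order (33.9 for TRAV15-1-DV6-1, 30.9 for TRAV15N-1 and 27.5 for TRAV15D-1-DV6D-1). In the other 5 families the distal D name was above the more proximal N name, with 34.7 against 32.4 in TRAV16, 35.1 against 24.9 in TRAV6-7, 36.7 against 24.7 in TRAV4-4, 38.3 against 26.3 in TRAV13-4 and 27.7 against 22.9 in TRAV15-2. These are means by name. The D and N V exons of TRAV15-1, TRAV15-2, TRAV6-7 and TRAV4-4 have 0 mismatches, so that their reads cannot be placed by that sequence, and the clonotypes named TRAV6D-7 hold joins with the base of TRAV6-7-DV9, counted further on.

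Of the 43 TRAJ segments, 25.6% were called higher and 23.3% lower in TRAV/DV joins than in other joins of the same mice (edgeR, mouse as a term, adjusted p under 0.05). The 11 higher segments were all between TRAJ40 and TRAJ58 and the 10 lower ones between TRAJ5 and TRAJ31. TRAJ52 took 2.65%, 1.90% and 2.30% of TRAV/DV reads in the CTX mice and 1.25%, 4.96%, 3.49%, 2.27% and 2.49% in the CTX_CD4 mice, and 0.858% to 1.49% of other reads. It was higher in TRAV/DV joins in 8 of 8 mice, with a log2 difference of 1.09 ± 0.19 (SE, edgeR adjusted p = 0.0011). TRAJ22 took 2.29%, 4.32% and 3.64% of TRAV/DV reads in the CTX mice and 0.179%, 3.01%, 3.29%, 3.40% and 1.05% in the CTX_CD4 mice. All of these shares were below those of the other joins, 6.22% to 7.02%, and the log2 difference was -1.38 ± 0.30 (SE, edgeR adjusted p = 0.0027).

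The other named segments followed the same division. TRAJ50 (0.98), TRAJ48 (0.86), TRAJ49 (0.81) and TRAJ57 (0.80) had positive log2 differences, the first 3 higher in 8 of 8 mice and TRAJ57 in 6. TRAJ5 (-1.41 ± 0.47 SE), TRAJ15 (-1.02), TRAJ31 (-0.82) and TRAJ13 (-0.82) had negative ones. TRAJ5 took only 0% to 0.575% of TRAV/DV reads per mouse, with no read in CTX_CD4 mice 1 and 4, against 0.466% to 0.817% of other reads. TRAJ5 and TRAJ13 had under 10 TRAV/DV reads in every mouse and passed the read filter only through the other joins. Their differences therefore rest on few TRAV/DV reads. By the mean over mice, TRAJ49 was the largest single partner, with 6.54% ± 1.81 (SD, n = 8 mice) of TRAV/DV reads against 3.87% ± 0.39 of other reads. In single mice other segments could lead, such as TRAJ24 with 18.3% in CTX_CD4 mouse 5 and TRAJ12 with 14.3% in CTX_CD4 mouse 1. The number of TRAJ segments called ran from 14 to 21 when 1 mouse was left out. With the copies without DV as the comparator, 3 of 41 segments were called, TRAJ49 and TRAJ57 higher and TRAJ22 lower.

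**Figure D3:**
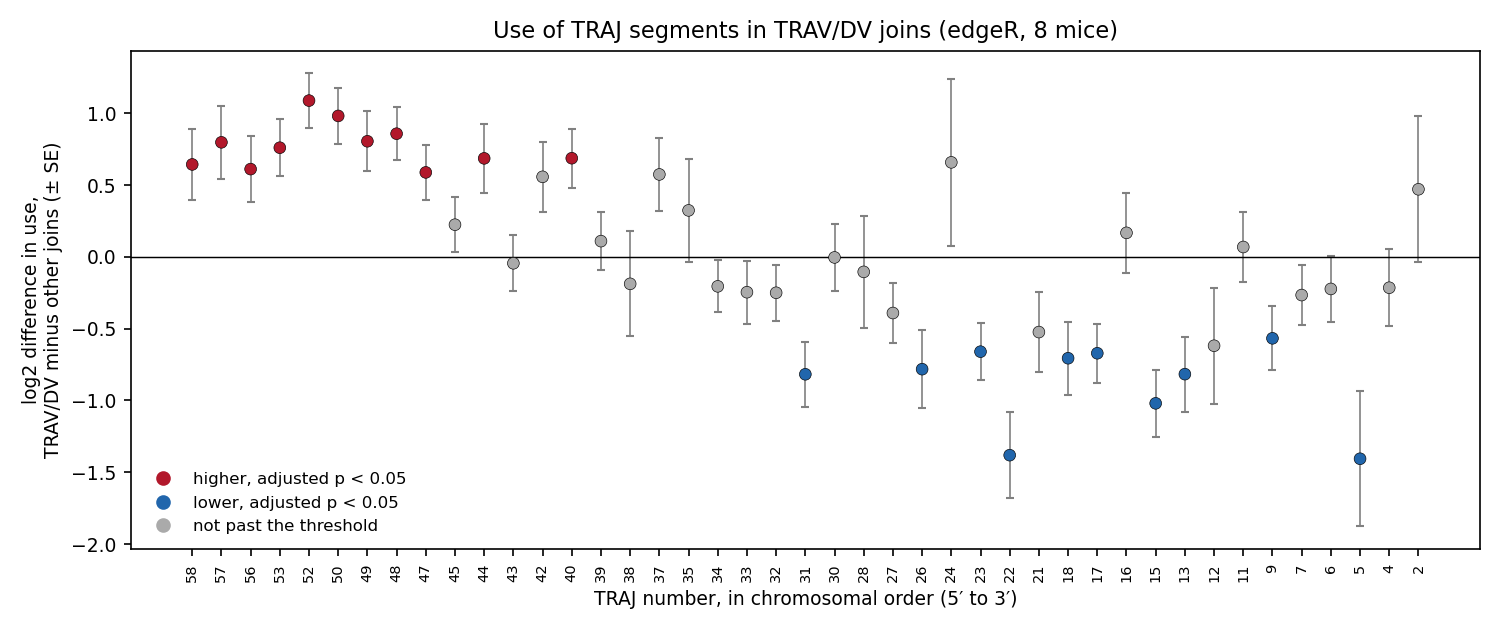
Log2 difference in the use of each TRAJ segment, TRAV/DV minus other joins (edgeR, points ± SE over 8 mice), in the order of the segments on the chromosome. The 11 segments called higher (red) lie between TRAJ58 and TRAJ40 and the 10 called lower (blue) between TRAJ31 and TRAJ5.

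CDR3s of TRAV/DV joins were longer. Their mean length was 43.7 ± 0.27 nucleotides (SD, n = 8 mice), against 40.8 ± 0.07 in other joins of the same mice. The within-mouse difference was 2.88 ± 0.31 nucleotides, with a lowest value of 2.42 and a highest of 3.40 (longer in 8 of 8 mice, exact sign-flip permutation p = 0.0078, adjusted 0.0195). CDR3s of 16 or more residues made up 25.8% of TRAV/DV clonotypes and 8.47% of the others. Between the groups, 43.6 ± 0.27 nucleotides in CTX and 43.8 ± 0.26 in CTX_CD4 were within the spread between mice (exact p = 0.571).

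The length differed between members in the order of their germline ends. TRAV15D-1-DV6D-1 had the longest CDR3s of the 96 V segments compared, 6.72 nucleotides above the rest, and 60.9% of its clonotypes had 16 or more residues. TRAV15-2-DV6-2 and TRAV15-1-DV6-1 were 5.49 and 5.14 nucleotides above the rest, TRAV16D-DV11 3.90 and TRAV6-7-DV9 1.51 above. TRAV13-4-DV7, with an end of 13 bases, differed from the rest by -1.11 nucleotides. Of the 8 members, 5 were called longer and 1 shorter, where 25.0% of the 96 V segments were called longer and 43.8% shorter (exact sign-flip permutation test, adjusted over 96). TRAV14D-3-DV8 (-0.22) and TRAV4-4-DV10 (-0.56) did not pass. Without TRAV16D-DV11 the class difference was 1.75 nucleotides, and against the copies without DV, whose germline ends averaged 15.2 nucleotides against 15.9, it was 0.88 nucleotides. Both of these remained past the test (exact p = 0.0078).

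The germline ends available to TRAV/DV joins averaged 15.9 nucleotides, against 13.7 in other joins, and the CDR3s matched them over 13.9 and 11.4 nucleotides. Bases that matched neither the V nor the J germline end averaged 3.09 and 3.21 per CDR3. From the positions in the deposited tables, inserted nucleotides numbered 2.15 ± 0.09 in TRAV/DV joins and 2.22 ± 0.02 in other joins, and the difference of -0.07 ± 0.10 did not pass (lower in 6 of 8 mice, exact sign-flip permutation p = 0.0859). Members differed here as well, from 1.80 inserted nucleotides in TRAV16D-DV11 to 3.71 in TRAV15D-1-DV6D-1. Their order depended on the measure. By bases that matched neither germline end, TRAV16D-DV11 had 2.87 and TRAV15D-1-DV6D-1 2.79. On that measure the members ran from 2.51 in TRAV15-1-DV6-1 to 3.73 in TRAV6-7-DV9. Without TRAV16D-DV11, the class mean of inserted nucleotides was 0.31 above the other joins (exact sign-flip permutation p = 0.0078).

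**Figure D4:**
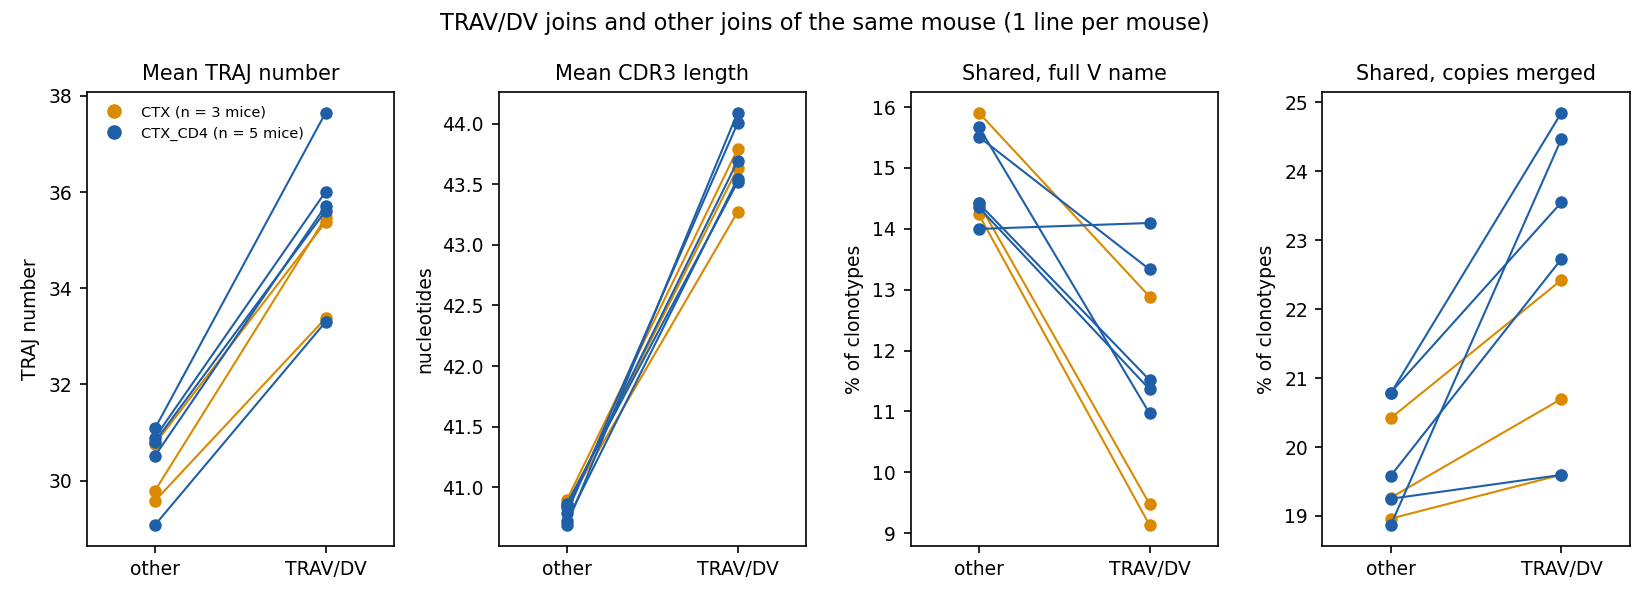
Mean TRAJ number, mean CDR3 length (nucleotides) and the share of clonotypes found in another mouse (%) under 2 definitions, for other joins and TRAV/DV joins of the same mouse (1 line per mouse; the axes do not start at 0). TRAJ number and length rise in all 8 mice, and the share of clonotypes in common falls in 7 of 8 mice with the full V name and rises in 8 of 8 once copies are merged.

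Whether TRAV/DV clonotypes recurred between mice depended on the V name. With clonotypes defined by CDR3 nucleotides, V and J, 9.48%, 9.13% and 12.9% of TRAV/DV clonotypes in the CTX mice, and 13.3%, 11.5%, 14.1%, 11.4% and 10.97% in the CTX_CD4 mice, were found in another mouse. The mean was 11.6% ± 1.77 (SD, n = 8 mice), against 14.8% ± 0.75 of other clonotypes, a difference of -3.22 ± 1.73 percentage points (lower in 7 of 8 mice, exact sign-flip permutation p = 0.0156, adjusted 0.0260). The class value depended on TRAV16D-DV11, of whose clonotypes 17.3% were found in another mouse, against 0% to 8.45% for the other 8 segments. The difference was -9.35 points without TRAV16D-DV11, -8.42 points against the copies without DV and -8.22 points among clonotypes of at least 2 reads (exact p = 0.0078 for each). When D and N copies were given 1 name, the shares became 22.2% ± 2.07 and 19.7% ± 0.80 and the difference turned to 2.50 ± 1.77 points (higher in 8 of 8 mice, exact p = 0.0078). All 7 families here have copies. With the CDR3 alone it was -0.83 points and did not pass (exact p = 0.219). Mice share these clonotypes and are thus not fully independent for this measure. Between the groups, 10.5% ± 2.08 (CTX) and 12.3% ± 1.37 (CTX_CD4) did not pass the test (exact p = 0.25).

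Many CDR3s carried several V names over the mice. Of 625 pairs of CDR3 and TRAJ that were found in at least 2 mice and had a TRAV/DV name in at least 1, 67 (10.7%) had a single V name everywhere, and 556 (89.0%) carried a name without "-DV" in some mouse. In 366 the several names were all of 1 family, meaning 1 segment and its copies. The names stayed within such a family for 377 of 398 CDR3s of TRAV16, 10 of 10 of TRAV15-1 and 1 of 1 of TRAV15-2. They did so for 10 of 87 of TRAV14-3, 18 of 82 of TRAV6-7, 12 of 35 of TRAV4-4 and 5 of 12 of TRAV13-4. Many CDR3s of these 4 were thus also listed with V names from outside the segment and its copies. Such names can carry the same TRAV number, as TRAV4N-3 did for the TRAV4-4-DV10–TRAJ48 CDR3 printed below. Among the 4930 pairs without a TRAV/DV name, 38.1% had a single V name. A pair with more names is more likely to hold a TRAV/DV name, so these shares are not a like comparison. TRAV16D-DV11 and TRAV16N were the only names used for this family, although the annotation also holds a proximal TRAV16 at chr14:53743104-53743705, whose V exon differs from theirs at 5 and 4 of 301 bases and which had 0 rows here. TRAV/DV names took 29.3% of the reads of the TRAV16 family (25.2% to 33.0% per mouse) and 10.3% to 44.4% per mouse of those of TRAV14-3.

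In TRAV6-7 the germline ends themselves tell the copies apart, by the substitution A10G (base 10 of the CDR3, counted from 1, TRAV6-7-DV9 base first). Of 296 clonotypes named TRAV6-7-DV9 that kept the 9 bases before and 2 bases after this position, 294 (99.3%) had the TRAV6-7-DV9 base. Of 266 such clonotypes named TRAV6D-7, 145 (54.5%, 31.3% to 79.2% per mouse) had the base of TRAV6-7-DV9 and 120 that of the copies. The mean TRAJ number of the former was 42.8 and of the latter 26.1, a difference in the same direction in 8 of 8 mice, and it was 42.3 for TRAV6-7-DV9 itself. Of 510 clonotypes named TRAV6N-7, 14 (2.75%) had the TRAV6-7-DV9 base and the other 496 had a mean TRAJ number of 24.4. In the other 6 families the ends of the names found here are identical and no such count was made.

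With the full V name, 2744 of 2906 TRAV/DV nucleotide clonotypes (94.4%) were found in 1 mouse, close to the 93.5% of the 45734 other clonotypes. A further 137 were found in 2 mice, 20 in 3, 2 in 4 and 3 in 5 mice. None of the 2906 was found in 6 or more mice, as 76 (0.166%) of the others were. The most widely shared are printed in lower case throughout, since every base matched the germline V or J end.
TRAV16D-DV11–TRAJ26, 5 mice: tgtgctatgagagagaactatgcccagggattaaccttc
TRAV16D-DV11–TRAJ49, 5 mice: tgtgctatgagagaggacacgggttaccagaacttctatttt
TRAV16D-DV11–TRAJ57, 5 mice: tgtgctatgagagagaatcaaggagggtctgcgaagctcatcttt
TRAV16D-DV11–TRAJ52, 4 mice: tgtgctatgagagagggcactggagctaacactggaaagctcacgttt
TRAV4-4-DV10–TRAJ48, 4 mice: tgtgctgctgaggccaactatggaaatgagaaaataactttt
The TRAJ26 sequence was found under TRAV16D-DV11 with 1 read in CTX mouse 3, 1 read each in CTX_CD4 mice 1, 2 and 5, and 11 reads in CTX_CD4 mouse 4. The TRAJ49 and TRAJ57 sequences were found in 8 of 8 mice once any V name was allowed, the second name being TRAV16N. The pair of mice with the most TRAV/DV clonotypes in common was CTX_CD4 mice 1 and 2, with 17, and the other 27 pairs had 3 to 15. Per 1000000 possible pairings of their clonotypes these were 104 and 21.3 to 87.9. The value of 87.9 was that of a pair across the groups, CTX mouse 3 and CTX_CD4 mouse 4.

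In all, 16 TRAV/DV clonotypes were expanded, defined as 10 or more of the 10000 reads, out of 301 expanded α-chain clonotypes. The members involved were TRAV16D-DV11 with 10, TRAV14D-3-DV8 with 5 and TRAV6-7-DV9 with 1. These are 5.32% of all expanded clonotypes, beside the 5.82% that TRAV/DV joins took of all clonotypes. The CTX mice held 2 and the CTX_CD4 mice 14 (87.5%), beside 39 and 262 (87.0%) of all expanded α-chain clonotypes. The share of TRAV/DV reads in expanded clonotypes was 5.47%, 2.42% and 0% in the CTX mice and 15.0%, 0%, 4.31%, 6.05% and 38.7% in the CTX_CD4 mice. The groups overlapped, with CTX_CD4 mouse 2 at 0% and CTX_CD4 mouse 5 far above the rest. Their means, 2.63% ± 2.74 (SD, n = 3) and 12.8% ± 15.5 (SD, n = 5), did not differ beyond the spread between mice (exact Mann–Whitney p = 0.268), and without CTX_CD4 mouse 5 the difference of 10.2 points was 3.72 points. The difference in expansion between TRAV/DV joins and the other joins of the same mice did not pass either (9.002% ± 12.9 and 8.45% ± 7.61 of reads, higher in 3 of 8 mice, exact sign-flip permutation p = 0.852).

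**Figure D5:**
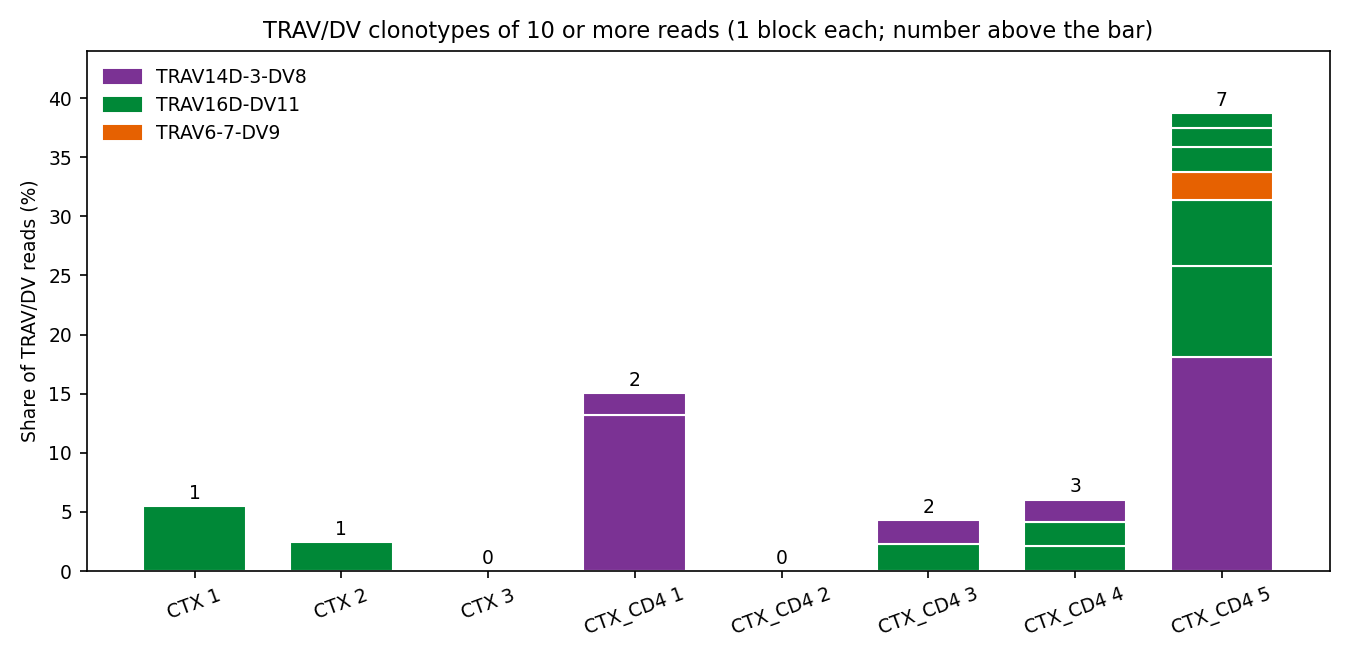
Share of the TRAV/DV reads of each mouse (%) held by clonotypes of 10 or more reads, 1 block per clonotype and coloured by segment, with their number above the bar. CTX_CD4 mouse 5 has 7 such clonotypes with 38.7% of its TRAV/DV reads, and CTX mouse 3 and CTX_CD4 mouse 2 have none.

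The most abundant TRAV/DV clonotypes of 3 mice are printed with capitals for bases that match neither germline end, as the mice with the largest such clones.
CTX_CD4 mouse 5, TRAV14D-3-DV8–TRAJ24: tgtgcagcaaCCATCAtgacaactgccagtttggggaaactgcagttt
CTX_CD4 mouse 1, TRAV14D-3-DV8–TRAJ12: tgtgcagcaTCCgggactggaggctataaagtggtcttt
CTX mouse 1, TRAV16D-DV11–TRAJ37: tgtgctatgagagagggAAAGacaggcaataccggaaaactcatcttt
The first had 138 reads, 1.38% of the library (Wilson 95% interval 1.17% to 1.63%), and 18.1% of the TRAV/DV reads of its mouse. The second had 74 reads (0.74%, interval 0.59% to 0.928%) and was also found in CTX_CD4 mouse 2 with 4 reads, while its CDR3 was found in 5 mice under any V name. The third had 31 reads (0.31%, interval 0.218% to 0.44%) and was found in no other mouse. They carried 6, 3 and 4 bases that matched neither germline end. From the deposited positions, their inserted nucleotides numbered 13, 3 and 4. In the other 5 mice the most abundant TRAV/DV clonotype had 5 to 14 reads. That of CTX_CD4 mouse 3 (TRAV16D-DV11–TRAJ2, 11 reads) had 0 inserted nucleotides, and CTX_CD4 mouse 4 held a pair of 11 reads each, TRAV16D-DV11–TRAJ26 with 0 and TRAV16D-DV11–TRAJ24 with 6 inserted nucleotides. CTX_CD4 mouse 5 also held a TRAV16D-DV11–TRAJ30 clonotype of 59 reads with 0 inserted nucleotides, named here after its values were seen. Intervals cover counting error only, since the reads carry no molecular identifiers in the sources used here.

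The reads of TRAV14D-3-DV8 rested on these clones in 2 mice. Counting only clonotypes under 10 reads, it had 73, 83 and 60 reads in the CTX mice and 90, 27, 69, 43 and 52 reads in the CTX_CD4 mice. For TRAV16D-DV11, the reads of CTX_CD4 mouse 5 fell from 400 to 260 in the same way, within the range of the other mice (233 to 304). TRAV4-4-DV10, TRAV13-4-DV7 and the TRAV15 segments had no expanded clonotype in any mouse.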

How the data were processed

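The TCR α-chain was sequenced in 8 libraries, 1 per mouse. The authors amplified the chains from RNA by nested PCR, removed adapters, aligned the reads in MiXCR (version not given in the sources used here), extracted clonotypes with VDJtools and drew 10000 reads from each library. The submitters' notes also name bcl2fastq and mm10. The deposited values used are counts of reads per clonotype and, per the file headers, the positions of the V end and J start within the CDR3. β-chain tables were not used here. The detection floor of 3 reads (0.03%) is the share that 0 reads allow and was not used as a filter. Clonotypes of 1 read, 68.4% to 89.1% of TRAV/DV clonotypes per mouse, were kept in the main measures.

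The members and lists were chosen with earlier results of these data known. The rule for names covered all TRAV/DV segments, at most 10 TRAJ segments by size of log2 change, the leading clonotype of every mouse and the 6 most widely shared. Copies are segments with the same name once D or N and the DV suffix are removed. Groups were compared by the exact Mann–Whitney test and classes by an exact sign-flip permutation test within mice, each with Benjamini-Hochberg adjustment (Python 3.11.15, scipy 1.17.1). The within-mouse test was also run over the 7 families against their copies and over 96 V segments against the rest. Each library is 1 mouse, so p-values measure the spread between mice. Reads per V or TRAJ segment were tested with edgeR 4.0.16 (quasi-likelihood, TMM, at least 10 reads in at least 3 columns), with DESeq2 1.42.0 as an alternative. The SE beside a log2 change was derived from the quasi-likelihood F statistic. Positions come from GENCODE vM21 and sequences from RefSeq's GRCm38, where all 116 V and 43 TRAJ names were found. Functions and fits were tested on simulated data. There, edgeR recovered 51% of 2-fold and 95% of 4-fold changes of V segments between the groups. For TRAJ segments between the classes it recovered 80% and 99%. Replicates 1 to 3 of the groups share numbers, but the deviations of same-numbered mice correlated at -0.10, 0.04 and -0.06, so the numbers do not pair the mice.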

Additional observations from a re-analysis of the deposited data

Results flagged for a closer look

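TRAV6-7-DV9 had 119 reads in CTX_CD4 mouse 2, farther from the 57 to 68 reads of the other CTX_CD4 mice than Dixon's limit for 5 values allows (ratio 0.823, limit 0.71). It held 100 clonotypes of the segment, against 38 to 49 in those mice, and none of 10 or more reads. Of its TRAV/DV clonotypes, 89.1% had 1 read, the highest share of the 8 mice. The same held for its other clonotypes, with 83.7%, and its library had the most clonotypes, 7695.

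The share of reads in TRAV/DV joins, 7.64% in CTX_CD4 mouse 5, also passed this limit (ratio 0.718). This mouse had the fewest clonotypes, 5043, and 24.8% of its other reads were in expanded clonotypes too. Of 16 items tested, 2 were past the limit, which chance passes in about 1 of 20 groups.

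TRAV21/DV12, written with a slash in the tables and so outside the rule, had 607 reads over 8 mice, 56 to 94 per mouse. Its clonotypes had a mean TRAJ number of 48.0, and TRAJ57, TRAJ49 and TRAJ58 were its leading partners with 12.8%, 10.96% and 10.7% of clonotypes.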

How the results depend on the processing

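Of 172 values recomputed under an alternative, 155 kept their direction and their side of the threshold (unadjusted p for the exact tests) or, for counts, lay within 1.5 times the first count. The within-mouse differences in TRAJ number (4.03 to 6.74) and CDR3 length (0.88 to 2.95 nucleotides) stayed past the test under every alternative run, leaving out each mouse included (4.78 to 5.17 and 2.81 to 2.95). The read share turned to -0.19 points with the replicate block (replicates 1 to 3 paired by number), -0.17 with clonotypes of at least 2 reads and -0.0322 without the most abundant TRAV/DV clonotype of each mouse, and ran from -0.21 to 0.48 when mice were left out. With the copies counted as members it was 1.46 points (exact p = 0.786). The clonotype share turned to -0.36 points with clonotypes of at least 2 reads. Under the replicate block, edgeR called 0 TRAV/DV segments and no other group result changed direction or passed. With 3 pairs the test cannot give a p below 0.25. The difference in inserted nucleotides turned to 0.25 when each read counted once, 0.0318 against the copies and 0.31 without TRAV16D-DV11, and ran from -0.0913 to -0.0555 when mice were left out, passing at p = 0.0469 (exact) without CTX mouse 2 or CTX_CD4 mouse 2. The difference in clonotypes shared between mice fell short of the test with the CDR3 alone (-0.83 points) and turned to 2.50 points with copies merged. It grew to -9.35 points without TRAV16D-DV11, -8.42 against the copies and -8.22 with clonotypes of at least 2 reads, and ran from -4.02 to -2.70 when mice were left out. The difference in expanded reads turned to -1.92 points against the copies and -1.98 with expansion from 5 reads, and ran from -1.35 to 1.56 when mice were left out. Between the groups, the TRAV/DV clonotypes shared with another mouse differed by 0.90 to 3.06 points and the TRAJ number by 0.23 to 1.503 when mice were left out. In the same way, the CDR3 length of TRAV/DV joins differed by 0.0586 to 0.318 nucleotides and their clonotype share by 0.111 to 0.368 points. With a mouse left out no exact test between the groups could pass, since the smallest p it allows is 0.0952 without a CTX mouse and 0.0571 without a CTX_CD4 mouse. The count of TRAJ segments fell from 21 to 3 with the copies as comparator, was 14 to 21 when mice were left out, 20 with DESeq2 and 22 over clonotypes. Adding TRAV21/DV12, leaving out TRAV16D-DV11, matching bases to the germline and merging copies were chosen after seeing the data. The causes were not tested. At 10000 reads, 5 TRAV/DV segments had under 30 reads in every mouse.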
